A study of Mus musculus with 8 samples.

Results

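The PGC-1, ERR and PPAR regulators form the transcriptional control of energy metabolism in the heart. The 10 genes described here, Ppargc1a, Ppargc1b, Esrra, Esrrb, Esrrg, Ppara, Ppard, Rxra, Tfam and Nrf1, were found by gene symbol among 80155 loci, of which 39614 carry a symbol. All 10 were found and all 10 passed the filter on low values. The rule that finds them uses symbols and no measured value, though the list was drawn up with earlier results of these data known. RNA-seq had been done on whole hearts of male Hsd:ICR(CD-1) mice, an outbred stock, at postnatal day 1 (P1, n = 4) and postnatal day 7 (P7, n = 4), to follow the heart through the week in which mice lose the ability to regenerate it. The mice carried no engineered allele and received no treatment that the labels name. The atrial appendages had been cut off before freezing, and each library came from 1 heart of a separately numbered animal.

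PGC-1α (Ppargc1a) and PGC-1β (Ppargc1b) are coactivators, which do not bind DNA themselves but are recruited by DNA-bound receptors and raise transcription there. Their main docking partners in heart muscle are the estrogen-related receptors (ERR), which act on genes of the respiratory chain and citric acid cycle without a known natural hormone, and the peroxisome proliferator-activated receptors (PPAR), which bind fatty acids and act on fatty acid uptake and oxidation in pairs with a retinoid X receptor (RXR). NRF1 and the mitochondrial transcription factor Tfam carry the same programme to the mitochondrial genome, and around birth the heart moves from glucose and lactate towards fatty acids as fuel.

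Levels are in FPKM, which scales the fragments of each locus by its length and by the fragments of the whole library, so that genes can be compared per length. The stages were compared with limma on log2(FPKM + 1) over the 43172 loci that reached 1 FPKM in any heart. A gene was called changed when the Benjamini-Hochberg adjusted p over all those loci was under 0.05 and its mean FPKM differed by a factor of 1.5 or more. The smallest steps between low FPKM values gave the worth of 1 fragment, and the depth per heart relative to the deepest library ranged from 0.639 to 1. On that scale the lowest value among the 10 genes, that of Ppard, stood for about 57.9 fragments and the highest, that of Ppargc1a, for about 9947. The ventricular muscle markers summed to 22450 to 38910 FPKM in P1 and 30740 to 46320 in P7, so heart muscle RNA was present as the labels say, and limma called 0 of these 9, with an unadjusted p under 0.05 in 3. Fibroblast markers (3 of 6 called higher in P7, summed FPKM 786 to 1638 in P1 and 1682 to 2105 in P7) and endothelial markers (2 of 5 called higher, 71.8 to 124 and 124 to 195) moved with stage, and their part in the results below was not tested. In whole-heart RNA, fewer cells of a type and less RNA per cell cannot be told apart. Ucp1, the uncoupling protein of brown fat, reached 3.08 FPKM in P7 replicate 2 and 10.3 in P7 replicate 4, against 0 to 0.147 in the other hearts, and the fat genes Adipoq, Plin1 and Cidec were also highest in those hearts. The other fat markers did not follow this. Cidea was at 20.6 to 24.8 FPKM in all P7 hearts and was the 1 of 6 tested fat markers called higher (limma adjusted p = 0.0348), Fabp4 was lowest of the P7 hearts in replicate 2, and Lep was below 1 FPKM throughout. The 7 fat markers summed to 1142 to 1352 FPKM in P1 and 1224 to 2026 in P7, and their part in the results was not tested. The library of P1 replicate 3 stood apart as well, with 28662 loci at 1 FPKM or more against 20269 to 22292 in the others. So did that of P7 replicate 4, where FPKM over all loci summed to 2136937, against 1038650 to 1400587 in the others. Annotated loci held 27.35% of that sum in P7 replicate 4, against 40.08% to 66.95% in the others.

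Of the 10 regulators, Rxra and Esrra rose from P1 to P7 and none fell, while the coactivators, ERRβ, ERRγ, PPARα, PPARδ, Tfam and Nrf1 did not pass the test. Among all 17960 annotated loci tested, 8.14% were called, 7.74% higher and 0.401% lower in P7, so that 2 of 10 is a count of a short list and is not read as particular to it. The median log2 fold change of the 10 was 0.18, beside 0.19 over the annotated loci. The hearts of the stages did not overlap, with P7 higher, for Rxra and Esrra and for 17.3% of the annotated loci. The median over annotated loci depended on scaling. When each heart was rescaled by its median ratio it became 0.0095 and that of the 10 regulators -0.03, so small positive fold changes among them cannot be read as a direction. The calls were near the threshold. They numbered 0 without either of P1 replicates 2 and 3 and without either of P7 replicates 1 and 3. They numbered 1 without P1 replicate 1 and without either of P7 replicates 2 and 4, and 3 without P1 replicate 4 (Ppard with Rxra and Esrra). Over annotated loci the share called was 4.6%, 0.935%, 2.39% and 16% without P1 replicates 1 to 4 in turn. It was 1.68%, 5.67%, 1.56% and 4.06% without P7 replicates 1 to 4 in turn, so the counts moved with the whole series. Without both P7 hearts with Ucp1, 0 regulators were called, beside 1.9% of annotated loci.

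**Figure D1:**
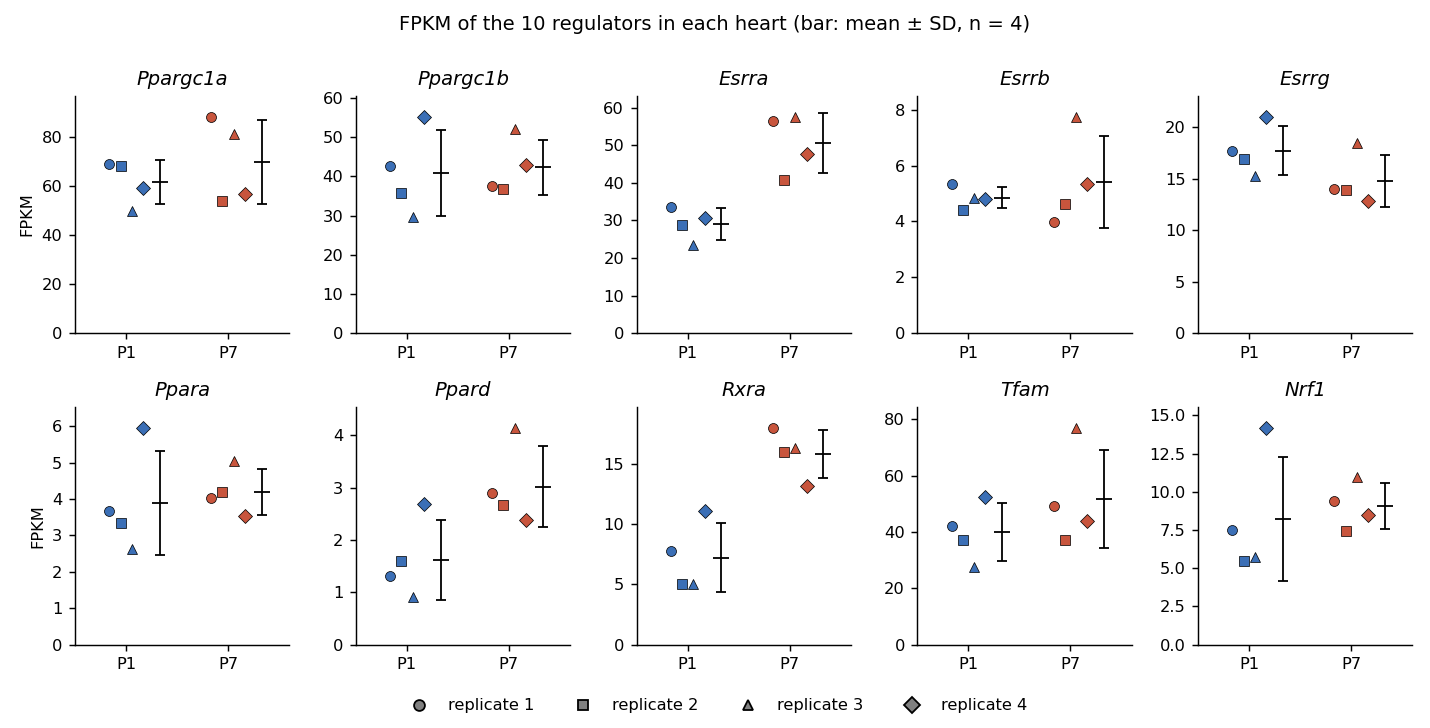
FPKM (vertical axis, linear from 0) of each of the 10 regulators in each of the 4 P1 hearts (blue) and 4 P7 hearts (red), with marker shapes for the replicate number and a bar for the mean ± SD. The P1 and P7 points of Esrra and Rxra do not overlap, and those of the other 8 genes do.

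Of the coactivators, Ppargc1a had the highest mean of the group at both stages and Ppargc1b the second highest in P1 only. Ppargc1a (chr5:51313471-51567725, GRCm38) measured 68.8, 68.1, 49.9 and 59.1 FPKM in the P1 hearts and 87.9, 53.8, 80.9 and 56.5 in the P7 hearts. P7 replicates 1 and 3 were above every P1 heart, and the other P7 hearts lay inside the P1 range. Mean FPKM went from 61.5 ± 8.90 to 69.8 ± 17.2 (SD, n = 4 per stage), and the log2 fold change was 0.16 with a standard error of 0.22 (limma adjusted p = 0.662). A second locus with the same symbol and span was listed at 2.51 to 7.32 FPKM over the 8 hearts and was not added. PGC-1α was thus the most abundant of the 10 mRNAs per length before and after the first week, above 94.05% of tested annotated loci in P1 and 93.75% in P7.

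Ppargc1b (chr18:61220482-61400482) measured 42.7, 35.7, 29.7 and 55.1 FPKM in P1 and 37.5, 36.8, 52.1 and 42.8 in P7. The ranges lay within each other, and P1 replicate 4 held the highest value. The log2 fold change was 0.07 with a standard error of 0.22 (limma adjusted p = 0.852). The file gives this locus to Ppargc1b and to the microRNA mmu-mir-378a together, whose hairpin lies inside the gene, so the value cannot be assigned to the coactivator mRNA alone. The third family member Pprc1, a coactivator linked to growth signals, was far lower, at 7.24 to 8.78 FPKM in P1 and 4.04 to 11.2 in P7.

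Within a heart, the plain ratio of 2 FPKM values is free of the scaling of that heart. The log2 ratios tested here and below had 1 added to each FPKM, so they are free of it only in part, least at low values. The plain ratio of Ppargc1a to Ppargc1b was 1.61, 1.91, 1.68 and 1.07 in P1 and 2.35, 1.46, 1.55 and 1.32 in P7. The ranges overlapped, and the difference of the means of the log2 ratio, taken after adding 1 to each FPKM, was 0.09 (exact permutation test, two-sided, p = 0.743, the same after adjustment over the 3 ratios tested). After a correction for transcript GC content, 41.7% in Ppargc1a and 57.8% in Ppargc1b, the difference was 0.74 (exact permutation test, p = 0.0286), so this comparison depends on the processing.

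Among the ERR genes, Esrra rose. Esrra (chr19:6906697-6921813), which encodes ERRα, measured 33.5, 28.8, 23.4 and 30.6 FPKM in P1 and 56.4, 40.8, 57.4 and 47.7 in P7. All 4 P7 hearts were above all 4 P1 hearts, with the lowest P7 value in replicate 2 and the highest P1 value in replicate 1. Mean FPKM went from 29.1 ± 4.23 to 50.6 ± 7.85 (SD, n = 4 per stage), 1.74 times as much, and the log2 fold change was 0.78 with a standard error of 0.19 (limma adjusted p = 0.0448). With single hearts left out, the call held without P1 replicate 4 and without P7 replicate 2, and was lost without each of the other 6 hearts, with limma adjusted p-values up to 0.138 (without P1 replicate 2) and 0.101 without P1 replicate 3 (log2 fold change 0.68). It was lost without both P7 hearts with Ucp1, where the fold change was larger (0.96, adjusted p = 0.0756). It was also lost with GC correction (0.79, adjusted p = 0.068) and with median-ratio scaling, where the adjusted p was 0.0269 and the ratio fell short of 1.5, and with the filter dropped (limma adjusted p = 0.073). Exons of Esrra overlap those of Trmt112, which lies on the opposite strand, and of Mir6990. How the counting treated strand is not given in the sources used here, so reads of these neighbours cannot be told apart from Esrra.

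Esrrg (chr1:187608791-188214986), which encodes ERRγ, an ERR of oxidative muscle, measured 17.7, 16.9, 15.3 and 20.99 FPKM in P1 and 13.98, 13.9, 18.5 and 12.85 in P7. P7 replicates 1, 2 and 4 were below every P1 heart and replicate 3 was within the P1 range. The log2 fold change was -0.25 with a standard error of 0.19 (limma adjusted p = 0.454). With median-ratio scaling the value was -0.48 (limma adjusted p = 0.0315), still short of the ratio of 1.5, and with GC correction it was 0.0036. Esrrb (chr12:86361107-86521698), best known for its role in stem cells and placenta, was the lowest ERR gene, at 5.325, 4.41, 4.85 and 4.79 FPKM in P1 and 3.97, 4.61, 7.73 and 5.35 in P7. P7 replicate 3 was the highest and P7 replicate 1 the lowest of the 8 hearts (log2 fold change 0.10, limma adjusted p = 0.764).

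The balance between the ERR genes differed between the stages. The ratio of Esrra to Esrrg within a heart was 1.90, 1.70, 1.53 and 1.46 in P1 and 4.03, 2.93, 3.11 and 3.72 in P7. The lowest P7 ratio was above the highest P1 ratio. On the log2 scale, after adding 1 to each FPKM, the ratio averaged 0.68 ± 0.16 in P1 hearts and 1.71 ± 0.21 in P7 hearts (SD, n = 4 per stage), so they differed by 1.03 (exact permutation test, two-sided, p = 0.0286, the smallest this design allows, and 0.0429 after adjustment over the 3 ratios). The difference was 0.949 to 1.099 with any 1 heart left out and 0.78 with GC correction, each at an exact permutation p of 0.0286. The stages were fully apart with every heart in, so they stayed apart with any heart left out. That repeated p, the smallest for 3 hearts against 4, adds no separate evidence. As a share of the summed ERR FPKM, Esrra held 53.75% to 59.3% in P1 and 68.7% to 75.9% in P7, and Esrrg held 31.3% to 37.3% and 18.8% to 23.5%. These shares restate the same FPKM and were not tested.

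**Figure D2:**
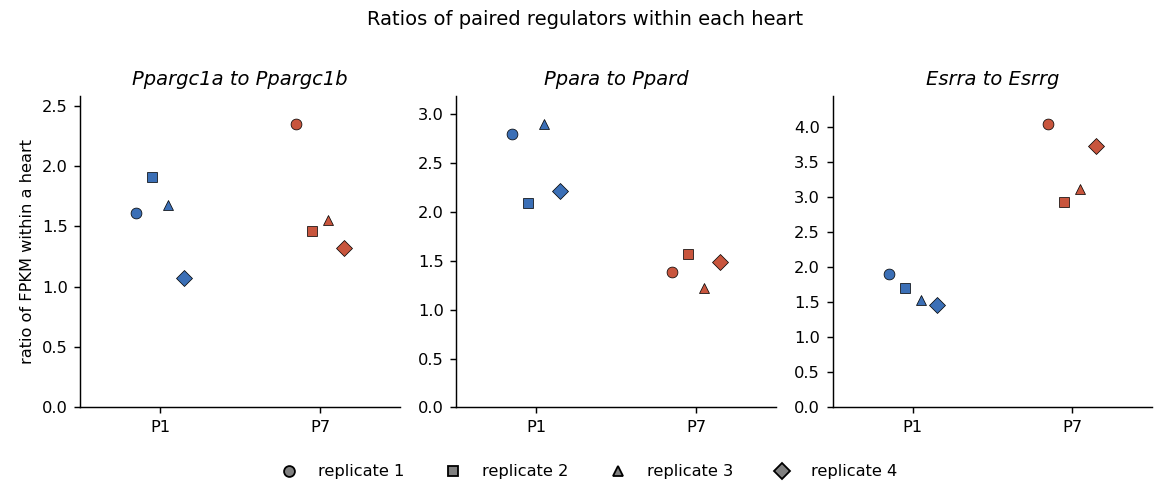
Ratio of FPKM of 2 regulators within each heart (vertical axis, linear from 0) for Ppargc1a to Ppargc1b, Ppara to Ppard and Esrra to Esrrg, in P1 (blue) and P7 (red), with marker shapes for the replicate number. The stages overlap for the coactivators and are apart for the PPAR ratio (1.22 to 1.57 in P7, 2.09 to 2.90 in P1) and the ERR ratio (2.93 to 4.03 in P7, 1.46 to 1.90 in P1).

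The PPAR genes were the least abundant of the group per length. Ppara (chr15:85734983-85811697), whose product is the main fatty acid sensor of cardiac muscle, measured 3.66, 3.335, 2.62 and 5.94 FPKM in P1 and 4.02, 4.185, 5.05 and 3.53 in P7. P1 replicate 4 was the highest of all hearts, and every P7 heart lay inside the P1 range. The log2 fold change was 0.12 with a standard error of 0.22 (limma adjusted p = 0.742).

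Ppard (chr17:28232754-28301469), which encodes the widely expressed PPARδ, measured 1.31, 1.59, 0.903 and 2.68 FPKM in P1 and 2.89, 2.67, 4.13 and 2.38 in P7. P1 replicates 1, 2 and 3 were below every P7 heart, and P1 replicate 4 was within the P7 range. The ratio of the means was 1.86 and the log2 fold change 0.64 with a standard error of 0.23 (limma adjusted p = 0.162), so Ppard was not called. Without P1 replicate 4 it passed, with a log2 fold change of 0.82 (limma adjusted p = 0.035).

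The ratio of Ppara to Ppard within a heart was 2.80, 2.09, 2.90 and 2.21 in P1 and 1.39, 1.57, 1.22 and 1.49 in P7. Each P7 ratio was below each P1 ratio. The mean log2 ratio, after adding 1 to each FPKM, went from 0.90 ± 0.11 to 0.38 ± 0.11 (SD, n = 4 per stage), a P7 minus P1 difference of -0.52 (exact permutation test, two-sided, p = 0.0286, and 0.0429 after adjustment over the 3 ratios). Without 1 heart it was -0.57 to -0.47, and with GC correction -0.47, each at an exact permutation p of 0.0286. As for the ERR ratio, the p with a heart left out adds no separate evidence. With 0.1 added in place of 1 the difference was -0.77, at the same exact permutation p, so its size depends on the amount added. Ppara held 51.3% to 54.4% of the summed PPAR FPKM in P1 and 38.8% to 44.9% in P7, Ppard 18.1% to 25.6% and 27.95% to 34.3%, and Pparg, the PPAR of fat cells, 20.9% to 29.5% and 23.8% to 33.3%.

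Rxra had the largest fold change of the 10 under every setting run except GC correction, where Esrra (0.79) was above Rxra (0.73). Rxra (chr2:27676419-27763007), whose product RXRα pairs with the PPARs and with other nuclear receptors, measured 7.80, 5.02, 5.003 and 11.1 FPKM in P1 and 18.0, 16.02, 16.3 and 13.2 in P7. All P7 hearts were above all P1 hearts, and P1 replicate 4 came nearest to them. Mean FPKM went from 7.23 ± 2.90 to 15.9 ± 1.98 (SD, n = 4 per stage), 2.19 times as much, and the log2 fold change was 1.09 with a standard error of 0.24 (limma adjusted p = 0.0287). With single hearts left out the call held without P1 replicate 1, P1 replicate 4 or P7 replicate 4 and was lost without each of the other 5, with limma adjusted p-values up to 0.106 (without P1 replicate 2). The adjusted p was 0.0746 without P1 replicate 3 (log2 fold change 0.96) and 0.0799 without both P7 hearts with Ucp1 (1.20), and GC correction gave 0.73 (adjusted p = 0.144). With median-ratio scaling the call held at 0.87 (adjusted p = 0.0162), and with the filter dropped it was lost (limma adjusted p = 0.0624).

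Of the other RXR genes, Rxrg rose and Rxrb did not pass. Rxrg (chr1:167598384-167639623), which encodes RXRγ, an RXR of muscle and brain, measured 0.714, 0.253, 0.226 and 0.747 FPKM in P1 and 4.05, 3.855, 7.54 and 4.56 in P7. Its P1 values were all below 1 and its P7 values all above 3, and its mean FPKM was 10.3 times as high. The log2 fold change was 2.00 with a standard error of 0.23 (limma adjusted p = 0.00265) and understates the ratio because 1 was added to low values. Rxrg stayed past the thresholds under every alternative that gave it a value. Rxrb, the widely expressed RXR and the most abundant at both stages, measured 14.8 to 18.9 FPKM in P1 and 23.1 to 34.2 in P7 (log2 fold change 0.64, limma adjusted p = 0.0787). The 3 RXR genes summed to 21.8 to 27.4 FPKM in P1 and 40.8 to 56.2 in P7, of which Rxrg held 0.987% to 2.80% and 7.21% to 15.1%.

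**Figure D3:**
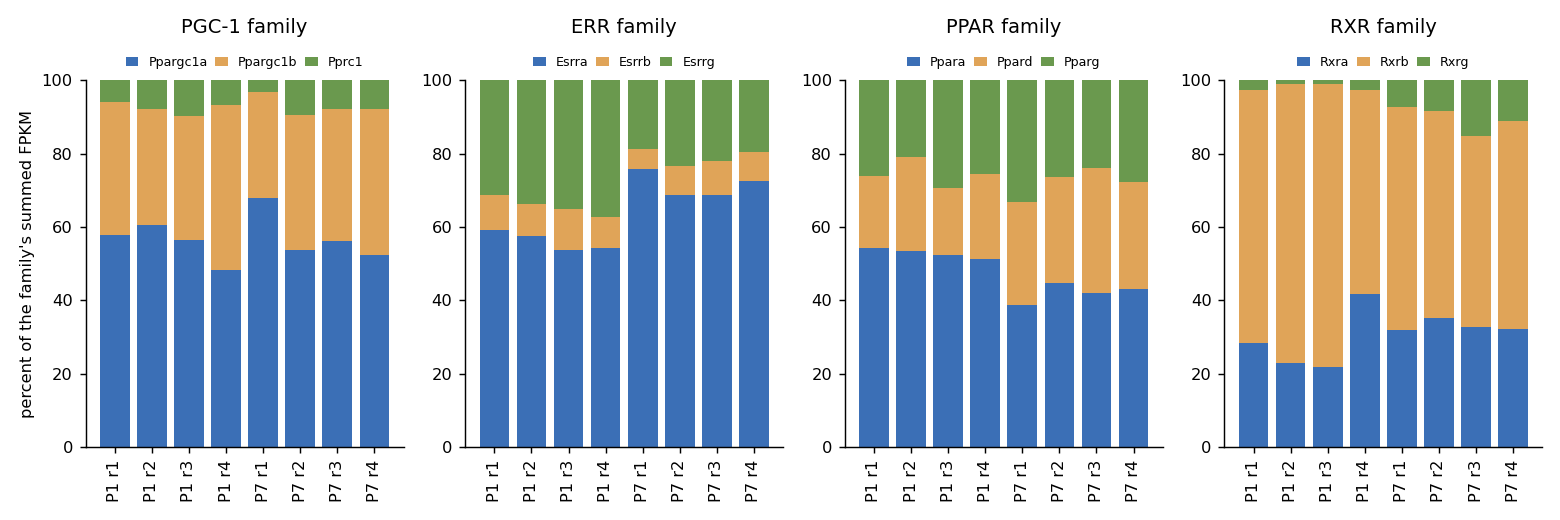
Share of each member in the summed FPKM of its family (vertical axis, percent, stacked to 100) in each heart, P1 replicates 1 to 4 then P7 replicates 1 to 4, for the PGC-1, ERR, PPAR and RXR families. The Esrra share is 53.75% to 59.3% in P1 and 68.7% to 75.9% in P7, the Ppara share is 51.3% to 54.4% in P1 and 38.8% to 44.9% in P7, and the PGC-1 shares of the stages overlap.

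The factors that act towards the mitochondrial genome did not pass the test. Tfam (chr10:71225464-71238280), which packages mitochondrial DNA and starts its transcription, measured 42.1, 37.2, 27.6 and 52.5 FPKM in P1 and 49.2, 37.2, 76.8 and 43.9 in P7. P7 replicate 3 was well above the other 7 hearts, which overlapped (log2 fold change 0.35, standard error 0.26, limma adjusted p = 0.446). Nrf1 (chr6:30047988-30153458), an activator of nuclear genes for mitochondrial proteins, measured 7.47, 5.45, 5.74 and 14.15 FPKM in P1 and 9.39, 7.43, 10.99 and 8.48 in P7. The highest value was in P1 replicate 4, above every P7 heart (log2 fold change 0.21, standard error 0.26, limma adjusted p = 0.638).

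In order of mean FPKM, the P1 hearts gave Ppargc1a, Ppargc1b, Tfam, Esrra, Esrrg, Nrf1, Rxra, Esrrb, Ppara and Ppard. In this order the ranges of neighbours overlapped except between Esrra and Esrrg and between Esrrg and Nrf1. The P7 order was Ppargc1a, Tfam, Esrra, Ppargc1b, Rxra, Esrrg, Nrf1, Esrrb, Ppara and Ppard, with gaps between neighbouring ranges only from Ppargc1b to Rxra and from Esrrg to Nrf1. The PPAR genes were last at both stages.

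The start-site windows of these genes were searched for 4 short motifs, on both strands, because regulators of this group are known to act on each other. The windows run from 250 bases before to 50 bases after each RefSeq start site on GRCm38.p6, and 9 of the 10 regulators have at least 1. The stretches below hold the matches in 4 genes of the group and in Rxrg, with the motif in capitals and 20 bases on each side, written 5′ to 3′ along the gene's strand. They are shown because these were the only genes searched that held a match. Esrra, Rxra and Rxrg are genes that rose, and Ppara and Tfam did not pass. The windows of Esrrb, Esrrg, Nrf1, Ppard and Ppargc1a held none of the 4 motifs. The NRF1 core GCATGCGC is found in 2.71% of 32851 windows, the ETS core CCGGAAG bound by GABP in 8.86%, and the site AAGGTCA of ERR and other nuclear receptors in 4.72%. The direct repeat bound by PPAR with RXR, AGGTCA repeated after 1 free base, is found in 0.0396% and in none of these genes.
Esrra, NRF1 core at -34, chr19:6921815-6921862, minus strand: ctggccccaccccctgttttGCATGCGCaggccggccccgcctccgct
Ppara, NRF1 core at -29, chr15:85735727-85735774, plus strand: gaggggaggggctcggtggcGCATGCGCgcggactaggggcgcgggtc
Tfam, ETS core at -47, chr10:71238065-71238111, minus strand: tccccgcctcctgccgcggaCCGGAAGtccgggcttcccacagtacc
Rxra, ERR site at -49 in 1 of 2 windows, chr2:27709223-27709269, plus strand: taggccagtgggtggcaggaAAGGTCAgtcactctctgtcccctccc
Rxrg, ERR site at -89 in 1 of 2 windows, chr1:167618156-167618202, plus strand: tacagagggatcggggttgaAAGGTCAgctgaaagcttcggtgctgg
Positions count from the start site to the first capital. In Ppara a match to the reverse complement overlaps the one shown and begins at -31. The windows shown for Rxra and Rxrg lie inside those genes, each at a start downstream of the first base of the locus. A match is a run of letters and does not show that a factor binds there. The binding sites of the PPARs on their targets often lie outside such windows, and no match says only that these letters were absent from the window.

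Genes that work with the regulators were taken from a list of 34 partners and cofactors, all of which were tested. Of these, 5 were higher in P7 and 0 lower, beside 7.74% and 0.401% of the annotated loci, and the median log2 fold change was 0.35, beside 0.19. In 8 of them all P7 hearts exceeded all P1 hearts, as in 17.3% of the annotated loci. Apart from Rxrg, the largest were Prkab1 and Tfeb. Prkab1, a subunit of the energy sensor AMPK, measured 6.97, 4.80, 3.44 and 9.72 FPKM in P1 and 16.03, 13.1, 14.1 and 12.8 in P7 (log2 fold change 1.13, limma adjusted p = 0.0312). Tfeb, a regulator of lysosomes and autophagy that also induces PGC-1α, measured 16.5, 12.3, 8.45 and 13.0 FPKM in P1 and 27.1, 32.0, 25.6 and 24.4 in P7 (log2 fold change 1.09, limma adjusted p = 0.0197). Neither gene's stages overlapped. Another call, named after its values were seen, was the muscle transcription factor Mef2d (log2 fold change 0.83). The count was 1 without P1 replicate 2 and without either of P7 replicates 1 and 3, 2 without P1 replicate 3 or P7 replicate 4, 3 without P1 replicate 1 or P7 replicate 2, and 1 without both P7 hearts with Ucp1. The share of annotated loci called also moved with each omission, as given above for the regulators. Prkab1 held in 2 and Tfeb in 5 of the 8 single omissions. GC correction ended both calls, at 0.86 for Prkab1 (limma adjusted p = 0.108) and 0.63 for Tfeb (limma adjusted p = 0.151), and dropping the filter ended that of Prkab1 (limma adjusted p = 0.0667).

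The PPAR target list held the most calls. Of its 38 genes 37 were tested, since Fgf21 was below 1 FPKM in every heart, and 12 were higher in P7 and 0 lower (32.4% called, beside 8.14% of annotated loci). The median log2 fold change was 0.63, beside 0.19 over the annotated loci. Of the 37 values 35 were positive, beside 12147 of the 17960 annotated loci. In 17 all P7 hearts exceeded all P1 hearts, beside 17.3% of annotated loci. Slc27a1, a fatty acid transporter of the plasma membrane, measured 7.43, 5.68, 3.89 and 11.9 FPKM in P1 and 26.9, 23.9, 26.2 and 15.9 in P7 (log2 fold change 1.62, limma adjusted p = 0.0141). Ucp3, the uncoupling protein of muscle, measured 1.91, 1.42, 0.769 and 3.99 FPKM in P1 and 6.41, 6.78, 5.86 and 7.83 in P7 (log2 fold change 1.45, limma adjusted p = 0.0185). Pdk2, a kinase that holds back pyruvate entry into the citric acid cycle, measured 18.55, 16.7, 10.04 and 15.15 FPKM in P1 and 42.1, 51.1, 42.9 and 33.2 in P7 (log2 fold change 1.44, limma adjusted p = 0.00789). None of these 3 overlapped between the stages, and Pdk2 was called under every alternative run. Slc27a1 was not called without P1 replicate 2 (limma adjusted p = 0.0529), nor Ucp3 without P1 replicate 2 (0.0672), without P7 replicate 1 (0.0521) or without both P7 hearts with Ucp1 (0.086).

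The other 9 called PPAR targets, named after their values were seen, had log2 fold changes of 0.82 to 1.38. They were Pnpla2 and Plin5, which act on stored triglyceride, Ucp2, the pyruvate dehydrogenase kinase Pdk4, the β-oxidation enzymes Acads, Eci1 and Ech1, Mlycd, which removes malonyl-CoA, and the thioesterase Acot2. Several classic targets, also named after their values were seen, did not pass. Cd36, the fatty acid translocase, had a log2 fold change of -0.02, the lipase Lpl 0.09 and Hadhb of the trifunctional protein 0.07. Cpt1b, the muscle gatekeeper of fatty acid entry into mitochondria, had 0.79 (limma adjusted p = 0.104). Acads, Acot2 and Cpt1b share their loci with Gm13826, Acot5 and Chkb, so their values cannot be assigned to those genes alone. The count of calls was 5 without P1 replicate 3 or P7 replicate 1, 6 without P7 replicate 3 and 4 without both P7 hearts with Ucp1. It was 3 without P1 replicate 2, where 0.935% of annotated loci were called, and 17 without P1 replicate 4, where 16% were. These targets were picked from general knowledge, but with earlier results of these data known, so the share called is not independent of those results. They are shared with other regulators.

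The ERR targets of the respiratory chain and citric acid cycle held few calls. Of 38 genes on the list 37 were found and tested, with 2 higher in P7, 0 lower and a median log2 fold change of 0.32. The called share, 5.41%, was near the 8.14% of annotated loci. Mb, the oxygen store myoglobin, measured 2720, 2137, 1917 and 2263 FPKM in P1 and 6300, 4911, 7935 and 5784 in P7, with no overlap (log2 fold change 1.45, limma adjusted p = 0.0141). Ckmt2, the mitochondrial creatine kinase of muscle, measured 25.6, 24.5, 21.9 and 71.3 FPKM in P1 and 115, 66.4, 157 and 75.0 in P7. P1 replicate 4 lay among the P7 hearts (log2 fold change 1.59, limma adjusted p = 0.0345). The ERR target calls numbered 0 without P1 replicate 2 or P7 replicate 1, 1 without P1 replicate 1 or 3 and without P7 replicate 3, and 4 without P1 replicate 4. The share of annotated loci called under each of these omissions is given above with the regulators. Mb was called in 6 of the 8 fits with 1 heart left out and Ckmt2 in 3. Ckmt2 was also lost with GC correction (limma adjusted p = 0.0578) and with the filter dropped (limma adjusted p = 0.0844).

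Of 25 genes for expression and upkeep of mitochondrial DNA, limma called 0, with an unadjusted p under 0.05 in 5, all of them higher in P7, beside an unadjusted p under 0.05 in 29.7% of annotated loci. The count was 1 without P1 replicate 4, where 16% of annotated loci were called. The median log2 fold change was 0.20 and the values ranged from -0.38 to 0.61. The genes with unadjusted p under 0.05, named after their values were seen, were the protease Lonp1 (0.61), the tRNA-processing Elac2 (0.53), the nucleoside kinases Tk2 (0.53) and Dguok (0.50), and the mitochondrial DNA polymerase Polg (0.52).

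**Figure D4:**
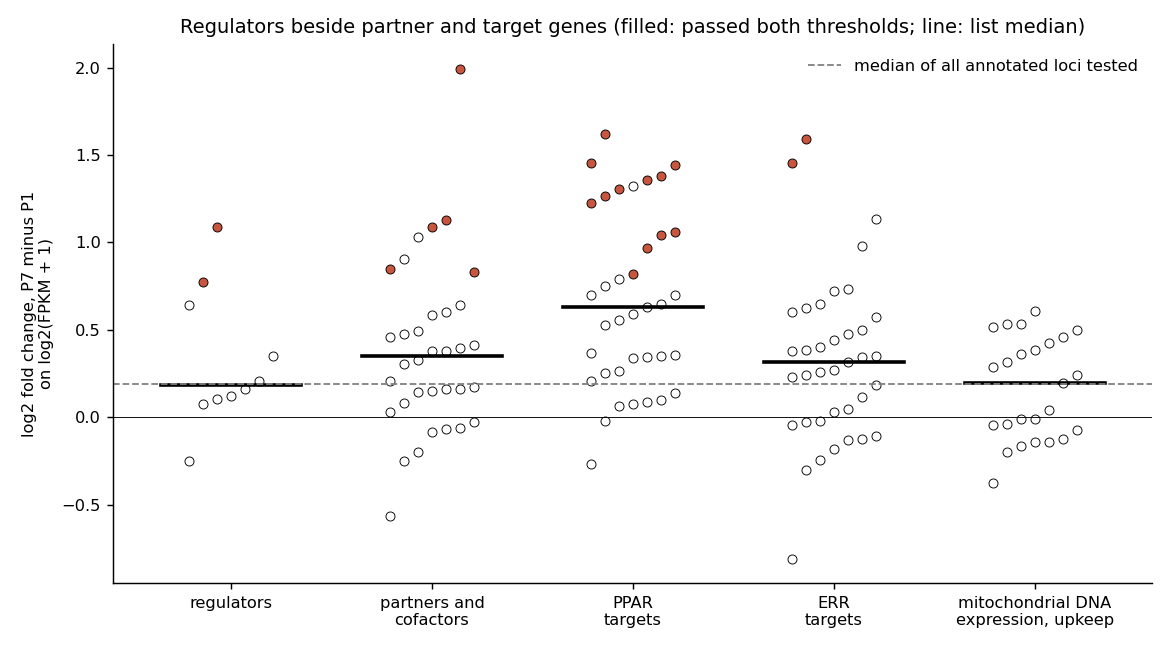
Log2 fold change from P1 to P7 on log2(FPKM + 1) (vertical axis) of each tested gene of the 5 lists, with filled points for genes past both thresholds, a solid line for each list's median and a dashed line for the median of all annotated loci tested (0.19). The PPAR target median (0.63) is above the dashed line, and those of the regulators (0.18) and of the mitochondrial DNA genes (0.20) are next to it.

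The loci whose profile over the 8 hearts was nearest to that of Rxra, the regulator with the smallest p, were Ahdc1, Lipe and Itm2b. Likeness was the mean absolute difference of log2(FPKM + 1) after centring each gene on its own mean, over 8685 annotated loci with a mean of at least 5 FPKM, and it was 0.0608, 0.0642 and 0.0643. Lipe, hormone-sensitive lipase, measured 3.58, 2.03, 1.83 and 4.98 FPKM in P1 and 8.78, 7.89, 6.84 and 6.62 in P7. In Lipe, Ahdc1 and Itm2b, as in Rxra, P1 replicate 4 was the highest P1 heart and P7 replicate 1 the highest P7 heart. This follows from picking the loci by their likeness to Rxra over these hearts.

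**Figure D5:**
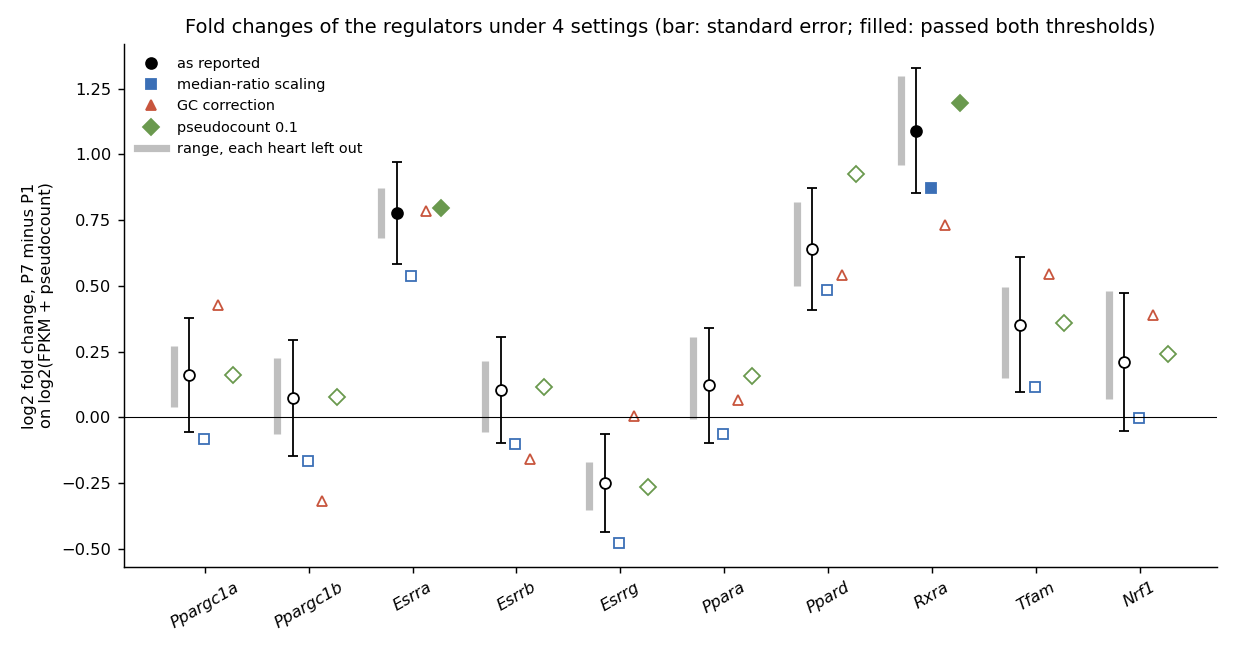
Log2 fold change from P1 to P7 (vertical axis) of each regulator as reported (black, with its standard error), with median-ratio scaling (blue), with GC correction (red) and with a pseudocount of 0.1 (green), filled where both thresholds were passed. Grey bars give the range with each heart left out in turn. Rxra, Esrra, Ppard and Tfam are above 0 in every setting shown, and the signs of Ppargc1a, Ppargc1b, Esrrb, Esrrg, Ppara and Nrf1 depend on the setting.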

How the data were processed

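RNA-seq of 8 hearts (4 P1, 4 P7, by the sample titles) was used. Per the study's methods, the authors had total RNA depleted of ribosomal RNA, made into libraries with ScriptSeq v2, and the reads aligned to GRCm38 with Ensembl 70 annotation. The aligner is not given in the sources used here. The deposited values are FPKM per locus. No counts were among the files used, so no count test was run. Depth was read from steps between low FPKM values, of which 83.0% to 99.9% per heart were whole fragments within 0.02.

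Symbols joined by commas were split and matched without regard to case, and the locus with the highest mean was taken. The members and gene lists were chosen with earlier results of these data known. Named genes were the members, the 3 called genes of largest change per direction in each list, and the 3 loci most like the member of smallest p. Loci at 1 FPKM or more in at least 1 heart were compared with limma 3.58.1 in R 4.3.3 (lmFit, eBayes with trend, pseudocount 1). The thresholds for a call, on the adjusted p and on the ratio of mean FPKM, follow the study's methods, which name no test. The low-value filter and the pseudocount are not given in those methods. P-values measure the spread between individual animals. Ratios within a heart were compared with exact permutation tests, with Benjamini-Hochberg adjustment over 3. With 4 hearts a stage the smallest p is 0.0286. Alternatives were GC correction (lowess on the longest GENCODE M21 transcript, span 0.3), median-ratio scaling, a replicate block, the pseudocount lowered to 0.1, the filter dropped or asked of all hearts, multi-symbol loci removed, and single hearts removed in turn. Leaving out both P7 hearts with Ucp1, and GC correction of the ratios, were added after seeing the data. The limma script was tested on simulated data. Motifs were counted in RefSeq start-site windows (GRCm38.p6). Ppargc1b has no window there. The values of 1 gene of the partner list are not reported here. Python 3.11.15, pandas 2.3.3, numpy 2.4.6, scipy 1.17.1, statsmodels 0.14.6 and matplotlib 3.10.9 were used.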

Additional observations from a re-analysis of the deposited data

Results flagged for a closer look

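Ckmt2 in P1 replicate 4 lay far from the other P1 hearts, at 71.3 FPKM against 21.9 to 25.6. The gap to its nearest neighbour took up 0.924 of the range of the 4 hearts, above the critical value of Dixon's test at 95%. Among 42 groups of 4 hearts examined this was the only such value, where chance gives about 2.1.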

How the results depend on the processing

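The calls rested on few hearts. With 1 heart left out the number of regulators called ran from 0 (without P1 replicate 2 or 3, or P7 replicate 1 or 3) to 3 (without P1 replicate 4), of partners from 1 to 6, of PPAR targets from 3 to 17, of ERR targets from 0 to 4, and of mitochondrial DNA genes from 0 to 1. Rxra was called in 3 of these 8 fits (adjusted p 0.00579 to 0.106) and Esrra in 2 (0.0311 to 0.138). Annotated calls ran from 167 to 2835. Regulators called were 0 with no filter, 0 with GC correction, 1 with median-ratio scaling and 0 without both P7 hearts with Ucp1. Partners called were 2 with no filter, 8 with a filter on every heart, 1 with GC correction, 8 with loci of 1 symbol and 1 without both hearts with Ucp1, and PPAR targets 5 with GC correction and 4 without both hearts. ERR targets were 1 with no filter, 5 with the filter on every heart, 1 with GC correction and 6 with loci of 1 symbol, and mitochondrial DNA genes 1 with the filter on every heart. Over all annotated loci the calls were 1462 as reported, 620 with no filter, 2573 with the filter on every heart, 2352 with loci of 1 symbol and 386 with GC correction. The cause of these differences was not tested. Signs turned, with no call, for Ppargc1a (-0.0812), Ppargc1b (-0.16), Esrrb (-0.10), Ppara (-0.0646) and Nrf1 (-0.0038) with median-ratio scaling, for Ppargc1b (-0.32), Esrrb (-0.16) and Esrrg (0.0036) with GC correction, for Ppargc1b (-0.0623) and Ppara (-0.0076) without P1 replicate 3, and for Ppargc1b (-0.0293) and Esrrb (-0.0549) without P7 replicate 3, while the highest values with 1 heart left out were 0.227, 0.305 and 0.216 for Ppargc1b, Ppara and Esrrb. The difference in the log2 ratio of Ppargc1a to Ppargc1b ran from -0.0869 (without P7 replicate 1, and -0.0822 without P1 replicate 4) to 0.19 with 1 heart left out, and was 0.74 with GC correction. The other ratios kept their direction and exact p in every alternative without pairing. For single hearts left out, the kept direction and separation followed from the full separation of the stages.

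Deviations of hearts with the same replicate number had correlations of -0.02, 0.12, -0.10 and -0.03, beside -0.16 to 0.10 for hearts of unlike number. These values gave no clear sign that the numbers pair the hearts, but so few correlations cannot exclude it. With the replicate block 1 regulator was called, Rxra (adjusted p = 0.0332), while Esrra had 0.1, and 1052 annotated loci were called. Paired exact tests of the ratios, whose smallest p is 0.125, gave 0.75, 0.125 and 0.125. Depth limits Ppard most. Ppargc1b had no value with loci of 1 symbol, nor Ppard and Rxrg with the filter on every heart.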
